A study of Mus musculus with 2 samples.

Results

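The forkhead (Fox) and Sox transcription factor genes were followed in cultured fibroblasts from mouse embryos (MEFs). Members were the rows of the count table whose symbol is Fox followed by a letter and a number, or Sox followed by a number. Of 53 such rows, Foxm1, Sox5, Sox6 and Sox9 were left out by the rule, which gave 49 members (36 forkhead and 13 Sox) of 17260 genes. The rule used no measured value. Messenger RNA was sequenced from 1 library of wild-type (WT) cells and 1 library of cells labelled Ahi1-/-. Both are labelled C57BL/6, were made from embryos at day 13.5, and were grown in DMEM with 10% serum. Ahi1 encodes a protein at the base of the primary cilium. The sources used here give neither the targeted exons nor how many embryos went into a culture.

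Forkhead proteins bind DNA through a winged-helix domain, and Sox proteins through an HMG box that bends the double helix. Most members act in development, where combinations of them set the identity of mesoderm, neural crest, endoderm and nervous tissue. In fibroblasts the FoxC and FoxF genes are known as regulators of mesenchyme, FoxO proteins respond to insulin and growth factor signalling through Akt, and the SoxC genes (Sox4, Sox11 and Sox12) are expressed in mesenchymal and neural progenitors. FoxP, FoxK, FoxJ and FoxN members are expressed in many tissues.

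Each genotype had 1 library, so there is no replicate check, no test and no p-value. A difference between the libraries compares these cultures and not the genotypes, and its interval is an exact 95% counting interval that covers counting error only. The libraries held 19067504 (WT) and 20820756 expected counts. The columns are headed CON and EXP, which were read as control (WT) and experimental (Ahi1-/-). Ahi1 itself had 410 counts in WT and 370 in the other library (log2 ratio -0.16, interval -0.37 to 0.05), so it gives no check of the labels, and directions rest on the labels and column heads. The second library is therefore called the library labelled Ahi1-/-. Counts below are given with WT first and the library labelled Ahi1-/- second. All 10 fibroblast markers listed for the check of cell type were at 1 TPM (a level scaled for gene length and depth) or more in both libraries. All 10 were past the minimum of 50 counts given below. Of them, 6 exceeded WT by 2-fold or more in the library labelled Ahi1-/- (60%, against 16.0% of all genes with that minimum). By 2-fold, 0 lay below WT (against 10.3%). Thy1 had 258 and 20631 counts (79.3-fold). The other 4, named after their values were seen, lay within 2-fold. They were Vim (76011 and 76885 counts), Pdgfrb (6868 and 11687), Prrx1 (8473 and 15612) and Twist1 (1377 and 1555). These are whole-culture libraries, in which fewer cells of a type and less RNA per cell cannot be told apart.

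Without Foxm1, Sox5, Sox6 and Sox9, the summed level of each of the 2 groups was nearly the same in both libraries while single members differed. The TPM of the 36 forkhead members summed to 422 in WT and 414 in that labelled Ahi1-/-, and that of the 13 Sox members to 135 and 145. In all, 23 members were at 1 TPM or more in WT and 24 in that labelled Ahi1-/-. Of the 49 members, 24 reached 50 counts in the higher library, the minimum for being counted as higher or lower at a 2-fold difference. Among them 6 were higher in the library labelled Ahi1-/- (25%, against 16.0% of the 12075 genes with that minimum), 4 were lower (16.7%, against 10.3%) and 14 lay within 2-fold. Either direction together took 10 of 24, where 26.4% of all such genes were called. The members are few for such shares, and nothing particular to the families is read from them. The 6 higher members were Foxs1, Sox13, Foxp2, Foxf1, Foxc2 and Sox4, and the 4 lower ones Foxo6, Sox2, Foxd1 and Sox12. The whole counting interval lay past 2-fold for 9 of these 10, the exception being Sox4. For members whose counts summed to at least 10, the median log2 ratio was -0.16 for 28 forkhead genes and 0.77 for 8 Sox genes, beside -0.01 for all 14485 such genes.

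**Figure D1:**
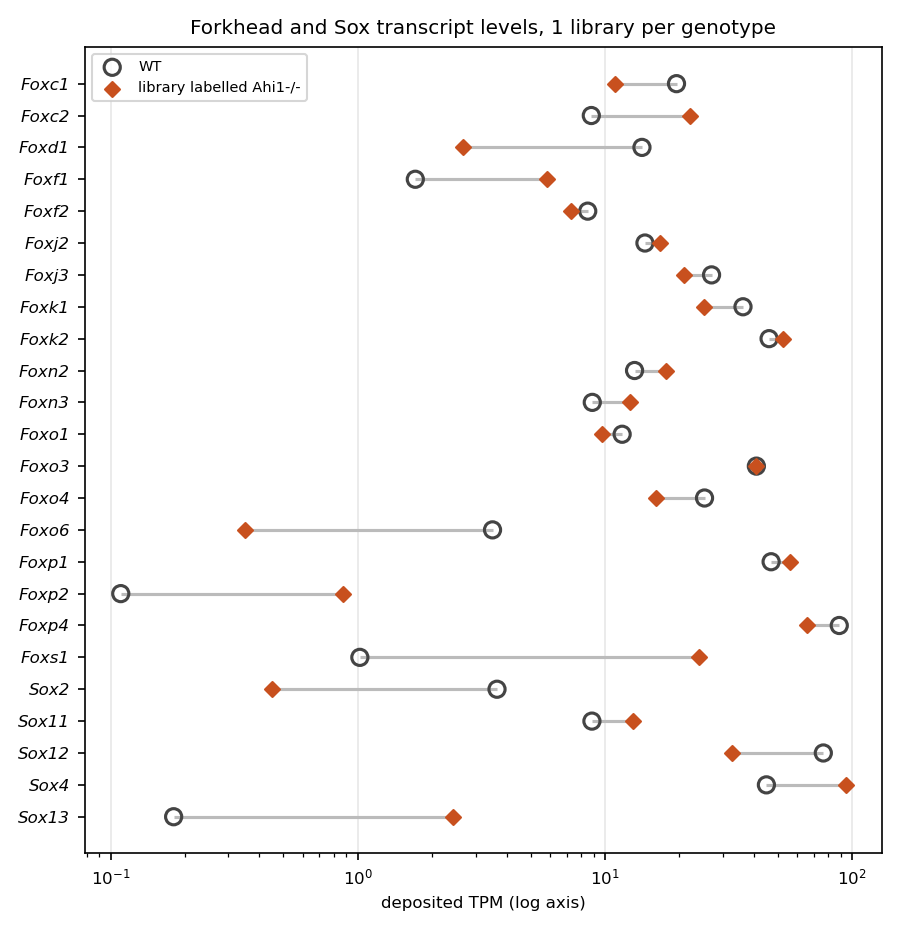
Deposited TPM (log axis) of the 24 members past the minimum of 50 counts, with WT as open circles and the library labelled Ahi1-/- as diamonds, 1 library each. Members such as Foxo3 (41.0 and 40.7 TPM) overlap, whereas Foxs1 runs from 1.02 to 24.1 TPM and Foxo6 from 3.51 down to 0.35 TPM.

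**Figure D2:**
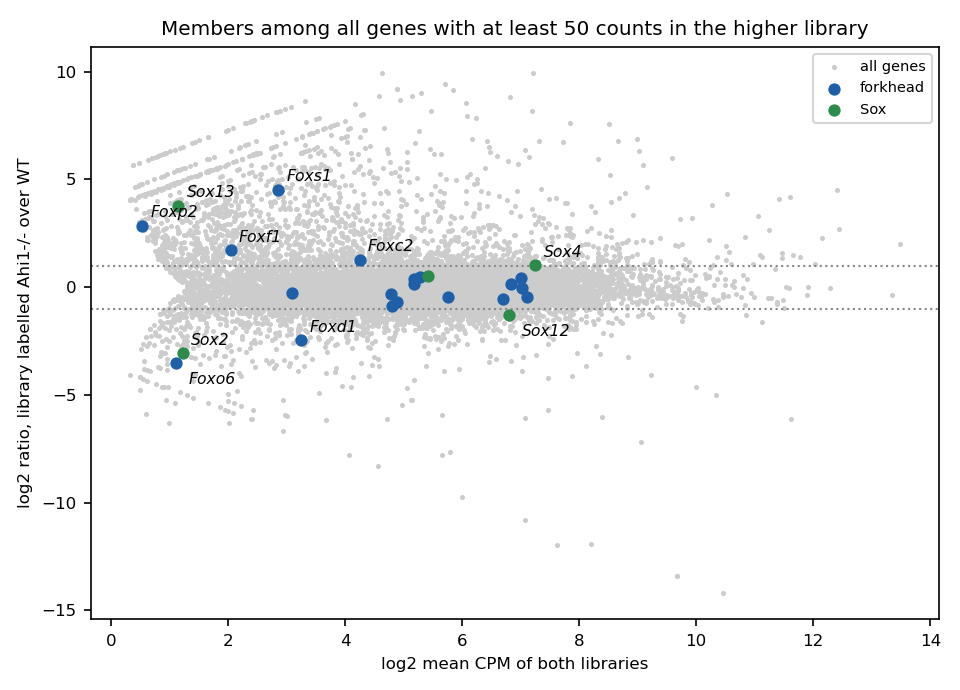
Log2 ratio (library labelled Ahi1-/- over WT) against log2 mean CPM (counts relative to the scaled library size) for all genes that reached 50 counts in either library, with genes at 0 in 1 library drawn at a floor of 3 counts in that library. Forkhead members are blue, Sox members green, and the 10 members past the dotted 2-fold lines are named.

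The SoxC genes were the most abundant Sox members, and their order differed between the libraries. Sox4, needed for heart, lymphoid and skeletal development, had 1995 and 4079 counts, or 45.0 and 94.3 TPM. It was 2.03-fold higher (interval 1.92 to 2.14), just past the 2-fold line. Scaled by total counts its log2 ratio was 0.90, which is not past it. Sox12, the least studied SoxC gene, went the other way with 3143 and 1306 counts (76.5 and 32.6 TPM), 2.43-fold lower (2.28 to 2.59). Sox11, known for its role in neurons and mesenchyme, had 697 and 1003 counts (8.86 and 13.1 TPM) and was 1.43-fold higher (1.29 to 1.57), within the 2-fold line. The level of Sox4 over that of Sox12, in TPM, was 0.59 in WT and 2.90 in that labelled Ahi1-/-. Sox12 made up 56.5% of the TPM of the 13 Sox members in WT and 22.4% in the other library, and Sox4 33.2% and 64.9%. These shares are of the members only, without Sox5, Sox6 and Sox9. Summed over the 3 SoxC genes the level was 130.4 TPM in WT and 139.9 TPM in that labelled Ahi1-/-, so the total differed little while the split did.

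**Figure D3:**
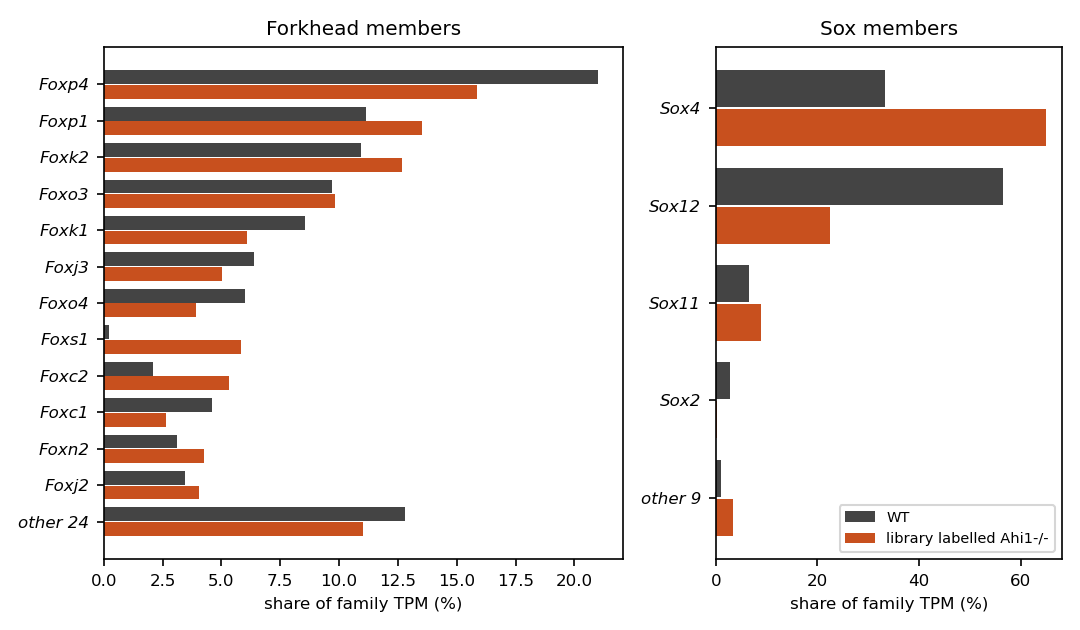
Share of each member in the summed TPM of the members of its family (%), WT in grey and the library labelled Ahi1-/- in orange, with the smaller members pooled. Sox4 and Sox12 exchange places (33.2% to 64.9% and 56.5% to 22.4%), while Foxp4 stays the largest forkhead share at 21% and 15.8%.

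Promoter sequences are shown for this SoxC pair, whose levels differed in opposite directions, and for Sox2, the lower member whose window holds a Sox motif. They are the 250 bases before the start of the gene in RefSeq (GRCm38.p6), 5′ to 3′ on the strand of the gene: Sox4 at chr13:28953700-28953949, minus strand, Sox12 at chr2:152398047-152398296, minus strand, and Sox2 at chr3:34649745-34649994, plus strand. Capitals mark every match, on either strand, to the forkhead motif TGTTTAC, the Sox motif ACAAAG and its variant ATTGTT, the CCAAT box, the GC box GGGCGG and the TATA box TATAAA.
Sox4 promoter: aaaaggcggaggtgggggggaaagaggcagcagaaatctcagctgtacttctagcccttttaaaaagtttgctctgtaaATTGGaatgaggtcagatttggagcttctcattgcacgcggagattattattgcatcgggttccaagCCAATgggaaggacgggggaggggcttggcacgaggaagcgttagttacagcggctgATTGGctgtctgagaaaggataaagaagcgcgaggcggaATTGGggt
Sox12 promoter: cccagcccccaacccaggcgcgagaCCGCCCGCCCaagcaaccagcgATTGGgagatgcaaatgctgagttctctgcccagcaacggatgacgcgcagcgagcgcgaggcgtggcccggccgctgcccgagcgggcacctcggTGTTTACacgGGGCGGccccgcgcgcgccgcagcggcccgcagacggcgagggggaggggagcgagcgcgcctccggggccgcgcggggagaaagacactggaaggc
Sox2 promoter: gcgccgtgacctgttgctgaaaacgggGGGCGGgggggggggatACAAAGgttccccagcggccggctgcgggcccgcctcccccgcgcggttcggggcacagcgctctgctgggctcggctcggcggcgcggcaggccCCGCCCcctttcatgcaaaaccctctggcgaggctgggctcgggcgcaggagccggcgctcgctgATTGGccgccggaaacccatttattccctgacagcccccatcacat

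The shown Sox4 window held 4 CCAAT matches and no GC box, whereas that of Sox12 held 3 GC box matches, 2 of them overlapping, 1 CCAAT and the forkhead letters TGTTTAC. Sox2 had 1 Sox match (ACAAAG), 1 CCAAT and 2 GC boxes. RefSeq windows were found for 31 of the 49 members (36 windows of 300 bases, from 250 before to 50 after the start). TGTTTAC was in 2 of these 36 windows (5.56%), those of Foxa1 and Sox12, against 3.65% of all 32851 windows and 2.73% of the 17151 windows of genes in the count table. The other shares are given with these backgrounds in the same order. ACAAAG was in 9 member windows (25%, against 18.7% and 14.9%), ATTGTT in 1 (2.78%, against 10.7% and 6.53%) and CCAAT in 17 (47.2%, against 37.4% and 37.4%). GGGCGG was in 26 (72.2%, against 35.7% and 55.1%), and TATAAA in 3 (8.33%, against 13.6% and 8.90%). The median number of CG dinucleotides was 22.5 in member windows, 17 in windows of genes in the count table and 7 in all windows. Member windows thus held more CG and GC boxes than either background, by less against genes in the count table, while the TATA share was close to that of those genes. A match is not a binding site, and no binding was measured.

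The counting of Sox4 carries a limit of its own. The longest coding transcript of Sox4 in GENCODE M21 (4795 bases) lies opposite exons of the noncoding gene Gm26735 over 2616 bases (54.6%). Whether the counting used strand is not given, and without it reads of an overlapping pair cannot be told apart.

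Among the other Sox members, those that mark neural cells and neural crest differed in opposite directions. Sox2, the SoxB1 factor of neural progenitors and pluripotent cells, had 83 and 10 counts (3.66 and 0.45 TPM), 8.37-fold lower (4.33 to 18.1). The SoxD gene Sox13 had 6 and 83 counts (0.18 and 2.44 TPM), 13.7-fold higher (6.04 to 38.4). Sox10, the SoxE factor of neural crest, Schwann cells and melanocytes, had 0 and 30 counts, at least 9.91-fold higher against a floor of 3 counts in WT (the 95% counting limit is 7.57-fold). Its SoxE relative Sox8 had 4 and 5 counts. Foxd3, a forkhead factor of premigratory neural crest, had 0 and 8 counts, at least 2.64-fold higher against the floor (counting limit 1.69-fold). Thus both neural crest regulators were without a count in WT and at low levels in the library labelled Ahi1-/-.

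Markers of Schwann cells and neural crest differed in both directions beside them. Of 9 listed markers 4 reached 50 counts in the higher library, of which 2 were higher and 1 lower, and the summed level of the list was 7.57 TPM in WT and 13.7 TPM in that labelled Ahi1-/-. Ngfr, the low-affinity neurotrophin receptor, had 0 and 64 counts (at least 21.1-fold higher against the floor, counting limit 16.7-fold). Tfap2a had 21 and 103 (4.86-fold higher), while the neuregulin receptor Erbb3 had 60 and 24 (2.52-fold lower). For the neural list, 3 of 10 markers reached 50 counts and 2 were higher, Map2 at 9 and 167 counts (18.4-fold) and Tubb3 at 428 and 1318 (3.05-fold), and the sum was 45.8 and 109 TPM. The progenitor marker Nes, named after its values were seen, had 1053 and 1138 counts. Sox2 thus went against the direction of Map2 and Tubb3. Lists with so few members past 50 counts allow no comparison of their shares with the 16.0% higher and 10.3% lower of all genes. This also holds for the marker lists below. The part of Schwann, neural crest and neural cells in the Sox2, Sox10 and Foxd3 values was not tested.

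SoxF genes, which act in endothelium, were near 0 in both libraries. Sox18 had 13 and 1 counts (log2 ratio -3.71, interval -9.12 to -0.98), Sox17 had 2 and 0, and Sox7 had 0 and 9 (at least 2.97-fold higher against the floor, counting limit 1.96-fold). The 12 endothelial markers summed to 41.3 TPM in WT and 73.3 TPM in that labelled Ahi1-/-, and 3 reached 50 counts, of which 2 were higher and 1 lower. That sum came mainly from Flt1 (837 and 2185 counts), Eng (60 and 646) and Egfl7 (236 and 117). The other 9, named here after their values were seen, had 31 counts or fewer in both libraries and no common direction. Tie1 had 20 and 0 counts, Cdh5 9 and 1, Esam 9 and 3, Pecam1 7 and 2 and Cldn5 2 and 1. Kdr had 20 and 20, Tek 8 and 9, Erg 13 and 31 and Emcn 1 and 8. Of the remaining Sox genes, Sox30, a gene of the male germ line, had 1 and 16 counts (log2 ratio 3.99, interval 1.30 to 9.38), and Sox15 and Sox21 had 1 count in each library. Of 10 listed germ cell and pluripotency markers, only 4 had a row in the count table. These were near 0 as well, with none at 50 counts and 2 at 10 or more over both libraries: Nanog at 16 and 25 counts and Ddx4 at 4 and 11.

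**Figure D4:**
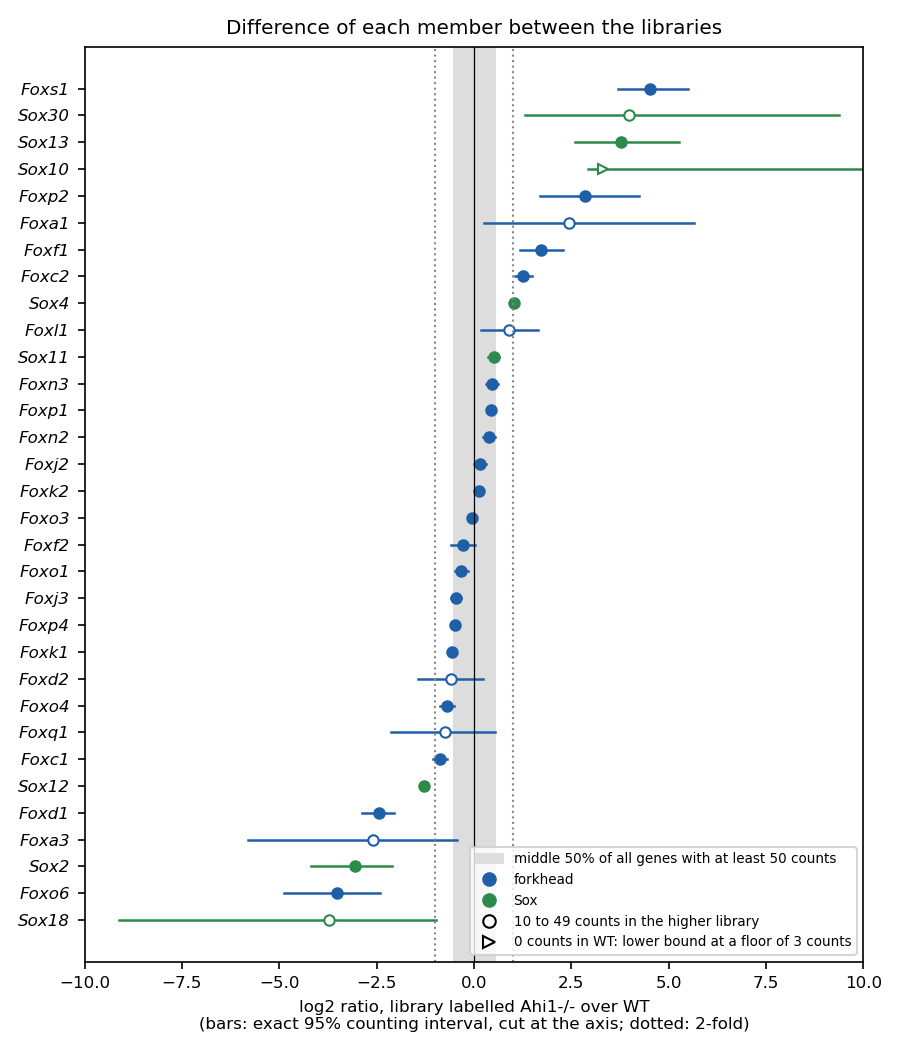
Log2 ratio (library labelled Ahi1-/- over WT) with exact 95% counting interval for the reported members that reached 10 counts in either library. Open symbols had 10 to 49 counts, the triangle is a lower bound, and the grey band spans the middle 50% of all genes with at least 50 counts. Foxs1 (4.52) lies at the top and Sox18 (-3.71) at the bottom.

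The mesenchymal forkhead genes lie in a pair of clusters of related genes, and the ratios within each cluster lay on the same side of WT. Foxf1, Foxc2 and Foxl1 neighbour each other on chromosome 8, and Foxq1, Foxf2 and Foxc1 on chromosome 13. On chromosome 8, Foxf1, a regulator of the mesenchyme around gut and lung, had 38 and 127 counts (1.71 and 5.84 TPM), 3.31-fold higher (2.29 to 4.89). Foxc2, known for vessel, lymphatic and skeletal development, had 221 and 538 counts (8.81 and 22.0 TPM), 2.41-fold higher (2.06 to 2.83). Foxl1, a gut mesenchyme gene, had 26 and 49 counts, 1.87-fold higher (1.14 to 3.13). All 3 lay above WT, with counting intervals that do not include equal levels.

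Their relatives on chromosome 13 lay below WT. Foxc1, which shares roles with Foxc2 in somites, heart and eye, had 719 and 396 counts (19.48 and 10.98 TPM), 1.83-fold lower (1.62 to 2.08). Foxf2, the relative of Foxf1 in palate and gut mesenchyme, had 185 and 154 counts (8.52 and 7.27 TPM), with a log2 ratio of -0.28 (-0.60 to 0.04). Foxq1 had 15 and 9 counts (-0.75, -2.12 to 0.54). For the last 2 the interval includes equal levels, although for Foxf2 it does not when scaled by total counts (-0.39, -0.71 to -0.08). Foxc1 alone of this cluster was set apart from WT by more than counting error under the scaling used here. Within each related pair the chromosome 8 gene had a larger share in the library labelled Ahi1-/- than in WT. The TPM of Foxc2 over that of Foxc1 was 0.45 in WT and 2.0 in that labelled Ahi1-/-, and that of Foxf1 over Foxf2 was 0.20 and 0.80.

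The genes around the chromosome 8 cluster did not share its direction. Mthfsd, which lies among the 3 forkhead genes, had 586 and 424 counts (1.39-fold lower). The 3 nearest genes with at least 50 counts on each side all lay below WT, among them Cox4i1 (5257 and 3380 counts, 1.57-fold lower) and Fbxo31 (972 and 332, 2.95-fold lower), both named for their position. The median log2 ratio over 774 genes of chromosome 8 was -0.36. Around the chromosome 13 cluster Exoc2 was above WT (638 and 958 counts, 1.49-fold) and Gmds below (787 and 289, 2.75-fold lower), and the median of 541 genes of that chromosome was near 0 (-0.003).

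**Figure D5:**
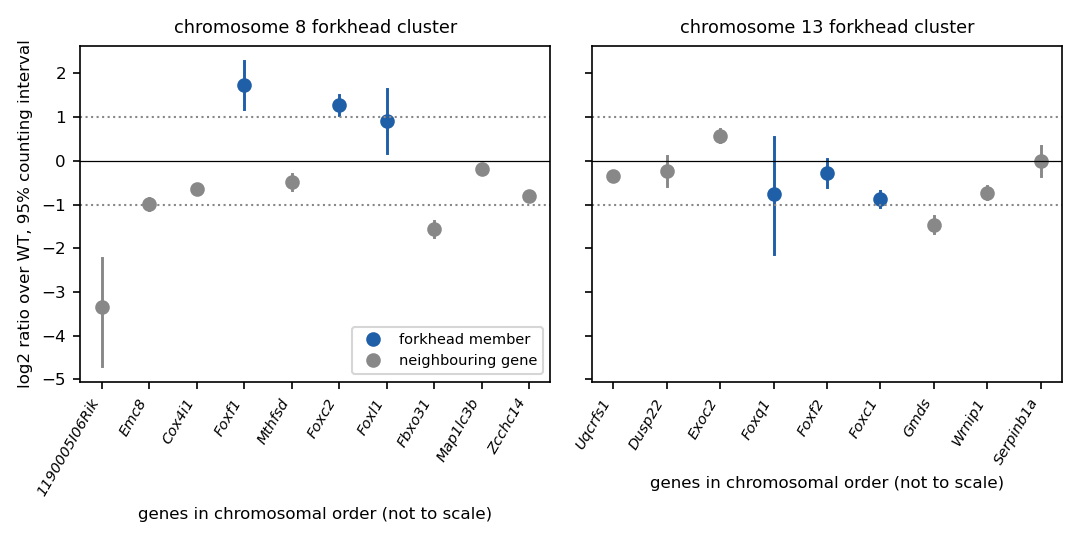
Log2 ratio with exact 95% counting interval of the clustered forkhead genes (blue) and their measured neighbours (grey), in chromosomal order and not to scale. Foxf1, Foxc2 and Foxl1 stand above their chromosome 8 neighbours, whereas Foxq1, Foxf2 and Foxc1 lie among theirs.

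Foxc1 and Foxc2 also share sequence, which bears on how their reads were divided. The longest identical stretch of their transcripts was 53 bases, inside the single coding exon of each gene, at chr13:31807646-31807698 for Foxc1 and chr8:121117032-121117084 for Foxc2 (GRCm38, plus strand).
Foxc1 and Foxc2 shared run: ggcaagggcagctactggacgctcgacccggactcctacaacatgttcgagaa
Outside repeats, it is the only run of 50 bases or more that a pair of members had in common. The deposited counts of the pair are fractions that add up to whole reads. They are 719.07 and 220.93 in WT, with a sum of 940, and 395.64 and 538.36 in the library labelled Ahi1-/-, with a sum of 934. The summed count of the pair was thus nearly equal in both libraries, while the counts of the single genes were not. The shared run is 0.91% of the Foxc1 transcript and 1.94% of the Foxc2 transcript. How many reads were divided between the genes is not given, and their part in the size of either difference was not tested. Foxq1 has a counting limit too, since 66.1% of its transcript lies opposite exons of A530084C06Rik.

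Foxs1 had the largest difference of any member with at least 50 counts. Foxs1, which is known from cells around blood vessels and from neural crest derivatives, had 12 and 278 counts (1.02 and 24.1 TPM), 22.96-fold higher (12.9 to 45.0). Its place among the 36 forkhead members by TPM was 19 in WT and 6 in the other library. Foxd1, a marker of kidney stroma and of part of the retina and hypothalamus, lay below WT. It had 319 and 59 counts (14.1 and 2.67 TPM), 5.46-fold lower (4.12 to 7.33), by less than Foxo6 and Sox2. Foxd2, a related gene of facial and kidney mesenchyme, had 33 and 22 counts (log2 ratio -0.60, interval -1.45 to 0.22). The endoderm pioneer factors stayed at the edge of detection: Foxa1 had 2 and 11 counts (2.45, 0.25 to 5.66), Foxa2 6 and 3, and Foxa3 12 and 2 (-2.60, -5.80 to -0.43).

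Markers of other cell types that use these genes were also higher in part. Of 9 markers of splanchnic mesenchyme, the tissue of Foxf1, 4 reached 50 counts and 3 were higher, and the sum was 4.72 TPM in WT and 40.7 TPM in that labelled Ahi1-/-. Hand2 had 0 and 383 counts (at least 127-fold higher against the floor, counting limit 102-fold). The other 2 were Tbx5 (5 and 241, 47.8-fold) and Gata6 (8 and 180, 22.3-fold). Hand2 and Tbx5 also pattern the limb. The others with at least 10 counts over both libraries, named after their values were seen, were Wt1 (67 and 79 counts), Gata4 (24 and 17), Barx1 (11 and 33) and Nkx3-2 (4 and 22). Of 11 epithelial markers 5 reached 50 counts and 4 were higher, and the list summed to 69.4 and 104 TPM. The higher ones were Krt18 (11 and 50 counts), Epcam (40 and 128), Cdh1 (36 and 89) and Krt8 (203 and 421). Krt19, which gave the largest part of the sum in both libraries, lay within 2-fold (592 and 680 counts, 51.0 and 60.8 TPM). Below 50 counts, Cldn3 (19 and 34) lay above WT and Trp63 (16 and 8) below. Krt19, Cldn3 and Trp63 were picked for mention with their values already known. With 4 and 5 markers past 50 counts, these lists allow no comparison with the 16.0% higher and 10.3% lower of all genes. The part of splanchnic or epithelial cells in the Foxf1 and Foxa values was not tested.

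FoxO genes had ratios below WT, except that Foxo3 lay at a log2 ratio of 0.002 with upper-quartile scaling, and 1 of the 4 passed the 2-fold line. Foxo3, the most abundant, had 2630 and 2561 counts (41.0 and 40.7 TPM) and a log2 ratio of -0.05 (-0.13 to 0.03), so no difference was detectable beyond counting error with this scaling. With total counts it was -0.17 (-0.24 to -0.09), and with its chromosome's median subtracted -0.26 (-0.34 to -0.18). Foxo1 had 605 and 489 counts (1.25-fold lower, 1.11 to 1.41), with an interval that includes equal levels once the chromosome's median is subtracted (-0.11, -0.28 to 0.07), and the X-linked Foxo4 729 and 456 (1.61-fold lower, 1.43 to 1.82). Foxo6, best known from brain, had 79 and 7 counts (3.51 and 0.35 TPM), 11.4-fold lower (5.28 to 29.2). Their joint level was 81.5 TPM in WT and 66.9 TPM in that labelled Ahi1-/-, of which Foxo3 made up the largest part in both.

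Of 20 listed upstream regulators of FoxO, 2 were higher (10%, against 16.0% of all genes), 1 was lower (5%, against 10.3%) and 17 lay within 2-fold, with a median log2 ratio of -0.19. Kinases of the Sgk family, which phosphorylate FoxO proteins as Akt does, were the higher ones. Sgk1 had 423 and 2534 counts (5.94-fold, 5.35 to 6.60) and Sgk3 87 and 197 (2.24-fold). Among 28 listed FoxO target genes, 22 reached 50 counts, of which 5 were higher (22.7%, against 16.0%) and 4 lower (18.2%, against 10.3%) than in WT (median -0.15). Higher were Trp53inp1 (185 and 1787 counts, 9.57-fold), Fbxo32, a ubiquitin ligase of muscle wasting (194 and 1309, 6.69-fold), Txnip (1068 and 3412, 3.17-fold), Bcl6 (232 and 696, 2.97-fold) and Gadd45a (168 and 434, log2 ratio 1.36). The lower targets were the cell cycle inhibitor Cdkn1b (2211 and 1115 counts, log2 ratio -1.0), Ccng2 (2804 and 1408, -1.01), the death gene Bcl2l11 (996 and 483, -1.06) and Sesn1 (511 and 224, -1.20), which, like Gadd45a, were chosen for naming once their values were known. The insulin signalling targets Irs2 (740 and 648 counts) and Insr (893 and 634), also named afterwards, lay within 2-fold. The target list thus had no common direction. Of these targets, Trp53inp1, Sesn1 and Gadd45a are also known targets of p53.

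Of the FoxP, FoxK, FoxJ and FoxN genes with at least 50 counts, Foxp2 was higher and the others lay within 2-fold. Foxp4 was the most abundant forkhead member in both libraries, with 3187 and 2314 counts (88.7 and 65.5 TPM), 1.39-fold lower (1.32 to 1.47). Foxp1 had 2178 and 2972 counts (47.0 and 56.0 TPM), 1.35-fold higher (1.28 to 1.43). Foxp2, the speech-associated gene of brain and lung, had 7 and 51 counts, 7.22-fold higher (3.26 to 18.9), and was at 0.11 and 0.87 TPM, under 1 TPM in both. Foxp3, which defines regulatory T cells, had 7 and 3 counts, and 15.6% of its transcript lies opposite exons of Ccdc22. Of 10 leukocyte markers 3 reached 50 counts and 1 was higher, Lyz2 (96 and 315 counts), and the list summed to 19.4 and 44.5 TPM. The rest, named after their values were seen, had no common direction. Of the myeloid markers, Adgre1 had 4 and 39 counts, Itgam 12 and 39, Cd68 50 and 56 and Csf1r 109 and 76. The pan-leukocyte marker Ptprc had 23 and 10 counts, and the T cell markers Cd8a 14 and 11, Cd4 3 and 1 and Il2ra 4 and 4. The part of such cells in the Foxp3 counts was not tested.

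Foxk1, a regulator of metabolism and autophagy genes, had 2461 and 1673 counts (1.48-fold lower, 1.39 to 1.58), and its relative Foxk2 had 2152 and 2376 (1.09-fold higher, 1.03 to 1.16). Foxj3 had 1242 and 915 counts (1.37-fold lower, 1.26 to 1.49) and Foxj2 675 and 761 (1.12-fold higher, 1.01 to 1.24). Foxn2 had 623 and 819 counts (1.30-fold higher, 1.17 to 1.45), and Foxn3, a repressor, 646 and 898 (1.38-fold higher, 1.24 to 1.53). All 6 lay within the 2-fold line, and how far cultures of the same genotype differ is not known here. The differences of Foxk1, Foxj3, Foxn2 and Foxn3 exceeded counting error with TMM, DESeq2, upper-quartile and total-count scaling and with chromosome medians subtracted, whereas those of Foxk2 and Foxj2 did not under every one of these. With total counts Foxk2 had a log2 ratio of 0.02 (-0.07 to 0.10) and Foxj2 of 0.05 (-0.11 to 0.20). With chromosome medians subtracted Foxk2 turned to -0.01 (-0.10 to 0.07) and Foxj2 was at 0.03 (-0.12 to 0.18). Foxj1, the master regulator of motile cilia, had 5 and 6 counts. Of 12 listed markers of multiciliated cells, 8 had a row in the count table. Only Tppp3 reached 50 counts (153 and 152), so no other could be called, and the sum was 15.8 and 19.2 TPM. Cfap126 had 22 and 25 counts, and, named after their values were seen, Ccno had 10 and 10 and Rsph1 4 and 15.

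Counts and TPM gave different sizes of difference for Foxp1. A gene's count divided by its TPM reflects the length that the quantification assigned to its mix of transcripts. For 17 members at 5 TPM or more in both libraries, this assigned length was compared between the libraries, relative to the median gene. It was 1.17 times longer in the library labelled Ahi1-/- for Foxp1 and between 0.98 and 1.01 times for the other 16. Of 9502 genes at that level, 190 (2.0%) differed by more than 1.1 times in either direction. Foxp1 was therefore 1.35-fold higher by count but 1.19-fold higher by TPM. It has 3 RefSeq promoter windows in different places, although transcripts were not resolved in the deposited files.

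Among listed cofactors with at least 50 counts, 90% of those of forkhead proteins and 66.7% of those of Sox proteins lay within 2-fold. The share among all such genes was 73.6%. Of 21 listed symbols of forkhead co-regulators 20 reached 50 counts, 2 were higher (10%, against 16.0% of all genes), 0 lower (against 10.3%) and 18 within 2-fold, with a median log2 ratio of -0.13. Runx1 had 1006 and 2693 counts (2.65-fold higher) and the Groucho corepressor Tle1 310 and 712 (2.28-fold higher). Of 18 listed Sox partner factors 12 reached 50 counts, with 0 higher (against 16.0%) and 4 lower than in WT (33.3%, against 10.3%), and the median of the 15 with at least 10 counts over both libraries was -0.32. Pou3f1, a POU factor of glia and epidermis, had 72 and 5 counts (14.5-fold lower), Lef1 181 and 56 (3.26-fold), Tcf7 375 and 117 (3.23-fold) and Pou2f1 607 and 288 (2.13-fold). Lef1 and Tcf7 carry HMG boxes of their own and act with beta-catenin in Wnt signalling. These lists were described by counts and medians alone, beside a median of -0.01 for all genes.

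The remaining forkhead members reported here had under 10 counts in both libraries and allow no statement on direction. Foxh1 had 6 and 2 counts, Foxn1 2 and 3, Foxr1 9 and 5, Foxl2 0 and 3, Foxe1 0 and 1, and Foxi1 and Foxr2 1 and 0 each. Foxl2 and Sox8 act in the supporting cells of the gonad, and of 7 markers of those cells only Inha reached 50 counts (136 and 236, within 2-fold). Amh had 10 and 7 counts and Dhh, named after its values were seen, 1 and 13. In all, 16 members had under 10 counts in both libraries, 9 had 10 to 49 in the higher library, and 24 had at least 50.

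A second deposited table, whose choice of genes is not given, lists FPKM values (fragments scaled for gene length and depth) for 3872 genes. It holds 12 members, among them the called ones except Sox4, and Sox10 and Sox30 in addition. Foxs1 stood at 0.50 and 10.6 FPKM, Foxd1 at 6.94 and 1.17, Sox12 at 37.6 and 14.3, Sox2 at 1.80 and 0.20, and Foxo6 at 1.73 and 0.15. Sox10 was listed at 0 in WT and at 0.54 FPKM in the library labelled Ahi1-/-. Every gene of that table differed by 1.64-fold or more in the counts, and it held 2998 of the 3183 called genes. The presence of the called members in it thus adds nothing about them. Each of the 12 had the same direction as in the counts, from which these values are not independent, so this is no second check.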

How the data were processed

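Messenger RNA of 1 WT and 1 Ahi1-/- library of mouse embryonic fibroblasts was analysed from tables deposited by the authors. These hold expected counts and TPM for 17260 genes, per the file headers, and FPKM for 3872 genes, also deposited by the authors. Of the counts, 65.1% (WT) and 64.4% were whole. Per the submitters' processing notes, RSEM 1.2.12, Bowtie2 2.2.5, HISAT2 2.0.4 and build mm8 were used, in roles that are not stated. Annotation, strand use and filters are not given either. All columns of values were used (0 left out).

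Expected counts were rounded. Library sizes were scaled by TMM (edgeR 4.0.16, R 4.3.3), without dispersion estimates or tests. Ratios carry exact Clopper-Pearson 95% intervals. A count of 0 was set to a floor of 3 counts per library (0.151 CPM in WT, 0.150 CPM in the other), and no ratio was given where the other library had 3 counts or fewer. Higher or lower means at least 2-fold apart and 50 or more counts in the higher library. A list member was measured with at least 10 counts over both libraries. Some listed symbols had no row in the count table. Rows were found for 8 of 10 neural, 9 of 11 epithelial, 9 of 10 leukocyte and 5 of 7 gonadal markers. They were found for 26 of 28 FoxO targets, 20 of 21 forkhead co-regulators and 17 of 18 Sox partners. The calculation was checked on simulated data. Python 3.11.15, numpy 2.4.6, pandas 2.3.3 and scipy 1.17.1 were used.

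Some results are not reported here. Named were the other members, and from each of the 14 lists up to 4 members with the largest ratios past the 2-fold rule, or else up to 2 with the most counts. The members and lists were chosen with earlier results of these data known. Of 17260 gene identifiers, 17210 were found in RefSeq GRCm38.p6, used for chromosomes, neighbours and promoters, which is not the build in the notes. Transcripts of all 49 members came from GENCODE M21. Runs of 50 bases shared with more than 5 other genes were left out as repeats. Alternatives covered the scaling, rounding, floor, count minimum, fold and chromosome medians.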

Additional observations from a re-analysis of the deposited data

How the results depend on the processing

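The number of higher and lower members depended on the count minimum and the fold. Against 6 higher and 4 lower members, a minimum of 10 counts in the higher library gave 10 and 6, a minimum of 200 gave 3 and 2, no minimum gave 12 and 9, and a 4-fold line gave 3 and 3. Under the other scalings, the deposited TPM ratio, counts that were not rounded, a floor of 1 count and subtraction of chromosome medians, there were 4 lower members each time and 6 higher ones, except 5 with total counts. With total counts, which shifted the median of all genes by -0.11, Sox4 had a log2 ratio of 0.90 and was no longer past the 2-fold line. Foxo3 changed sign with upper-quartile scaling (0.002), and Foxk2 with chromosome medians subtracted (-0.01). Neither is called. Among members with at least 50 counts, whether the counting interval includes equal levels changed for Foxf2, Foxo1, Foxo3, Foxj2 and Foxk2 under total counts or chromosome medians. The median of the forkhead members ranged from -0.28 (total counts) to -0.05 (at least 50 counts summed), and that of the Sox members from 0.82 (upper quartile) to 0.51 (at least 50 counts summed). No paired analysis was possible because each group has 1 library, so leaving out a replicate was not possible either. Depth limits the 25 members under 50 counts, whose intervals are wide.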
